A study of Homo sapiens with 24 samples.

Results

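The 40 genes described here encode proteins that copy DNA during S phase or prepare cells for it. They were given as a list of named replication genes, and each was read from its brightest probe that passed a filter on dim probes. Of the 40 genes, 39 were measured, out of 15246 genes measured in the series. The exception was CCNE2, which encodes cyclin E2, an activator of the kinase CDK2 at the G1/S boundary, because its probe lay above the array median on 0 of the 24 arrays. By role, 11 genes act in origin licensing, 6 in helicase activation, 13 as polymerases and other fork proteins, 4 in nucleotide supply and uracil removal, 3 in chromatin assembly and copying of DNA methylation, and 3 as G1/S drivers.

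DNA replication begins in G1, when the origin recognition complex, CDC6 and CDT1 load the ring-shaped MCM helicase onto origins. At S phase entry CDC45 and the GINS complex join the ring and activate it, and polymerases working with the sliding clamp PCNA copy the strands behind it. Transcription of many of these genes is driven by E2F factors and falls when cells leave the cycle, so their RNA is widely read as a mark of proliferating cells, including liver tumour cells.

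The series measured total RNA on Illumina bead arrays in Huh-7, a human hepatocellular carcinoma line, in stable lentiviral lines carrying a hairpin RNA and cultured at 1% oxygen. The shHIF1A line, against HIF1A, the oxygen-regulated subunit of the hypoxia-inducible factor, was sampled at 3 h (3 arrays), 6 h and 12 h (2 arrays each). The shNDRG3 line, against NDRG3, a protein that accumulates in hypoxia, was sampled at 6 h, 12 h and 24 h (2 arrays each). The control line shGFP, whose hairpin has no human target gene named in the labels, was sampled in normoxia (2 arrays) and at 3 h (3 arrays), 6 h, 12 h and 24 h (2 arrays each). Every line therefore carries a lentiviral hairpin, knockdown cells in normoxia were not analysed here, and whether the lines are clones or pools, and how many hairpins were used per gene, is not given in the sources used here. Nothing in the labels says that arrays of a group came from separate cultures, so the p-values here reflect the spread among arrays, which may be technical.

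All levels below are log2 signals after quantile normalization, which forces the arrays to share 1 distribution, and they are not comparable between probes. A change is the difference of group means on that scale with its standard error (SE) from a limma fit to all 24 arrays. A gene was called changed at a Benjamini-Hochberg adjusted p below 0.05 over all 15246 genes. Median deposited signals of the arrays ranged from 115 to 150. The Pearson correlation of arrays within a group across genes ranged from 0.980 to 0.997 over 15 pairs. The pair of shNDRG3 arrays at 24 h gave the lowest value, and replicate 2 of shHIF1A at 3 h stood apart from the other two arrays of its group (0.991 with each). HIF1A was lower in the shHIF1A line than in shGFP (change −1.48 ± 0.0955, adjusted p = 9.94e-12), and NDRG3 was lower in the shNDRG3 line (−2.18 ± 0.0677, adjusted p = 4.86e-18). Of 9 hepatocyte markers, 5 passed the filter and 0 exceeded 2 times the array median in normoxia. ALB, serum albumin, came closest at 0.92 log2 units above the median. AFP, alpha-fetoprotein, was at −0.27 relative to the median and lay below it in every group. APOA1, APOB, TF and HNF4A, the hepatocyte transcription factor, did not pass the filter. The name of the line is taken from the labels, and these markers do not bear out a hepatocyte-like profile. The epithelial keratins KRT8 and KRT18 lay 6.16 and 3.16 log2 units above the median. The epithelial marker EPCAM lay only 0.51 above it, and CDH1, epithelial cadherin, did not pass the filter. CD68, a lysosomal protein listed as a blood cell marker, lay 5.75 above the median, while PTPRC, the defining leukocyte marker, did not pass the filter.

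Markers of other cell types also moved in the comparisons below, and their part in the results was not tested. At 24 h in shGFP, against normoxia, 1 of 3 measured blood markers was higher (CD68, 0.69, adjusted p = 3.81e-05), 3 of 5 endothelial markers were higher and 2 lower, and 1 of 5 fibroblast markers was higher and 1 lower. The epithelial marker KRT8 was lower (−0.91), and 1 of 5 hepatocyte markers, ALB, was lower (−0.51). The summed normalized signal of the blood markers was 11365 to 12019 at 24 h, against 7002 to 7837 in normoxia, and that of the endothelial markers 999 to 1013, against 842 to 872. CD68 was lower on average in shHIF1A (−1.70) and in shNDRG3 (−1.79) than in shGFP, and the blood sum was 2444 to 3618 in shHIF1A, against 7120 to 10639 in shGFP at the same hours. It was 1789 to 6467 in shNDRG3, against 7915 to 12019. In shHIF1A 3 of 5 endothelial markers were lower, in shNDRG3 2 were, and in each line 1 of 5 fibroblast markers was higher and 1 lower. The lower one was COL1A1 in shHIF1A and LUM in shNDRG3, and LUM lay below the array median in every group. The epithelial marker EPCAM, near the array median, was lower in shHIF1A (−0.28, adjusted p = 0.0034) and in shNDRG3 (−0.38, adjusted p = 0.000264). KRT8 and KRT18 were not called in these averages. The other blood markers LYZ and HBB were not called in any of these comparisons.

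In the shGFP line replication genes fell late. At 24 h of 1% oxygen 32 of the 39 measured genes were lower than in normoxia and 1, RFC2, was higher, where 45.4% of all genes were called and 24.2% were called lower. The median change of the 39 genes was −0.82 log2 units, against −0.0028 over all genes. At 3 h limma called 0 of the 39, of which 4 had an unadjusted p below 0.05, where 1.48% of all genes were called. At 6 h it called 1, GINS3, where 4.87% of all genes were called, 3.25% higher and 1.62% lower. At 12 h 13 were lower and 3 higher (ORC1, POLD1 and LIG1), where 25.2% of all genes were called, 13% higher and 12.2% lower. The median of the 39 genes was −0.24. The 12 h count was not stable. It was 10 without either normoxia array, and 6 without replicate 2 of shGFP at 12 h. On the deposited scale, without normalization between arrays, 25 genes were lower and 0 higher at 12 h, and the median of all genes was itself −0.25 at 12 h and −0.41 at 24 h, so the directions given here are relative to the other genes on the array. At 24 h that scale gave 36 lower and 0 higher, with a member median of −1.37. In these bulk samples a smaller share of cells in S phase and less of these RNAs per cell cannot be told apart.

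**Figure D1:**
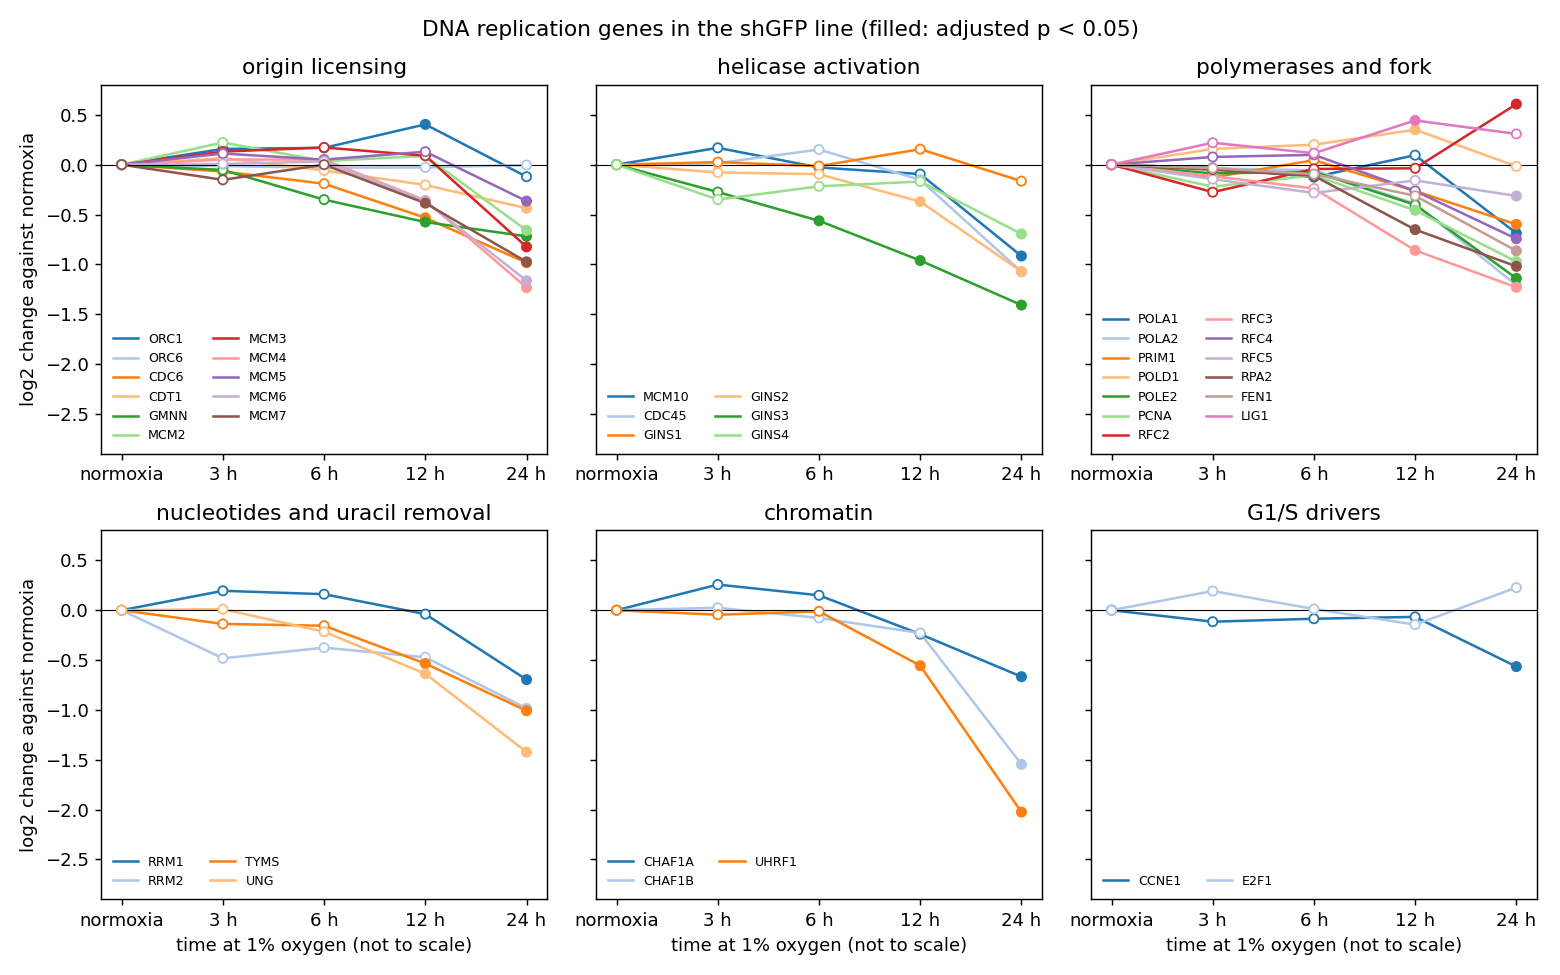
Log2 change of the 39 measured genes in the shGFP line against its normoxia arrays (y axis) at 3, 6, 12 and 24 h of 1% oxygen (x axis, not to scale), 1 panel per role. Filled points passed the threshold; most lines stay near 0 to 6 h, and 32 end lower at 24 h. RFC2 ends higher at 0.61, a value that turns to −0.045 on the deposited scale.

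The promoters of the genes with the largest 24 h fall in each role, among those with a listed promoter, are shown to let their E2F-type words be seen, with that of RFC2 as the gene called higher. Each runs from 250 bases before the annotated start to 30 after it (RefSeq, GRCh38.p14), 5′ to 3′ on the gene's strand. Capitals mark matches on either strand to the E2F-type words TTTCCCGC, TTTCGCGC, TTTGCCGC and TTTGGCGC. The regions are MCM6 chr2:135876414-135876693 (minus strand), GINS3 chr16:58392221-58392500 (plus), RFC3 chr13:33817899-33818178 (plus), UNG chr12:109097347-109097626 (plus), UHRF1 chr19:4909251-4909530 (plus), CCNE1 chr19:29811741-29812020 (plus) and RFC2 chr7:74254370-74254649 (minus).
MCM6: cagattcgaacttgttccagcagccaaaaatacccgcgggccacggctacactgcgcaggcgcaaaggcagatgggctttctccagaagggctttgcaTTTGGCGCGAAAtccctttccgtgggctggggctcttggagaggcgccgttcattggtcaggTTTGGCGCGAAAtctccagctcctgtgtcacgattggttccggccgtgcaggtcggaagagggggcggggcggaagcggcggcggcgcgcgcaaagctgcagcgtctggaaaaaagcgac
GINS3: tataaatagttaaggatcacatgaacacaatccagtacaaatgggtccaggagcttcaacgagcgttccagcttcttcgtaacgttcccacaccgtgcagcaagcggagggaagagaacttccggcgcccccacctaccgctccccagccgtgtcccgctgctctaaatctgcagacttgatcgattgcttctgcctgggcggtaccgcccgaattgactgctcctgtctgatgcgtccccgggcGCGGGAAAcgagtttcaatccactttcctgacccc
RFC3: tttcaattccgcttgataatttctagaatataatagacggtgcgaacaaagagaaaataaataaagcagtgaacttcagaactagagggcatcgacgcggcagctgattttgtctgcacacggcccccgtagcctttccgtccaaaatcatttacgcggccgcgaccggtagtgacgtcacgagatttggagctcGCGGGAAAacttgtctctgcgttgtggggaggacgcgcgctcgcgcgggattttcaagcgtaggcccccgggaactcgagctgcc
UNG: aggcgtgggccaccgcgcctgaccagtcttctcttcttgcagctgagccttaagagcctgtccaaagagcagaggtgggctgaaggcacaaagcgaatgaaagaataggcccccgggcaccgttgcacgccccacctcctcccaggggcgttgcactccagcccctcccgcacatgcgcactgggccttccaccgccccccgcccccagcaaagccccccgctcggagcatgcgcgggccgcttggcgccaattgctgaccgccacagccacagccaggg
UHRF1: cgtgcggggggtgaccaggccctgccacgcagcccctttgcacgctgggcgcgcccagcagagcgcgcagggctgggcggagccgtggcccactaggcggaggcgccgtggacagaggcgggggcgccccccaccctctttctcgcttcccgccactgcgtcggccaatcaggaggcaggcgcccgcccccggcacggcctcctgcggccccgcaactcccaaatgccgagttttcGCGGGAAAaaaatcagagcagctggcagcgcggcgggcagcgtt
CCNE1: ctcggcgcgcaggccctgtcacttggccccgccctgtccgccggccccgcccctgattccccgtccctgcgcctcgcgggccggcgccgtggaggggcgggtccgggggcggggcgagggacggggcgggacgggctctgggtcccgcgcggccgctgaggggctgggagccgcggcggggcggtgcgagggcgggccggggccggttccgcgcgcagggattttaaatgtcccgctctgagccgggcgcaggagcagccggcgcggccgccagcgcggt
RFC2: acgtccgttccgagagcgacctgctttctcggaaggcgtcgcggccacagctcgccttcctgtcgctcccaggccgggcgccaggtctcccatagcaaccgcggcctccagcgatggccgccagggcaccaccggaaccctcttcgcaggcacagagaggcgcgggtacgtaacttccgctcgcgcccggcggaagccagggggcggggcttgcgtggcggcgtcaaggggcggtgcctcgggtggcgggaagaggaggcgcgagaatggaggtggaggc

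MCM6 held 4 matches in 2 stretches, because TTTGGCGC and the reverse complement of TTTCGCGC overlap there. GINS3, RFC3 and UHRF1 held 1 match each, and UNG, CCNE1 and RFC2 held 0 in this window. Promoters, as windows of 250 bases before to 50 after the start, were listed for 35 of the 40 genes, and CCNE2, GINS4, MCM4, MCM5 and RPA2 had no entry. An E2F-type word was present in 18 of the 35 (51.4%), against 3.33% of all 27305 promoters and 5% of the tested genes with a promoter. The share was 6 of 9 licensing genes, 3 of 5 helicase activation genes, 6 of 12 fork genes, 1 of 4 nucleotide genes, 1 of 3 chromatin genes and 1 of 2 G1/S drivers. The CCAAT word was found in 57.1% of the 35, against 36.8% of the tested genes with a promoter and 35.7% of all promoters. The hypoxia-response words ACGTG and GCGTG were found in 74.3%, against 59.2% and 48.4%. The CHR words TTTGAA and TTCGAA, found in promoters of mitotic genes, were in 5.71%, against 12.5% and 16.6%. The median share of G and C was 67.3% in the 35 promoters, 64% in those of tested genes and 58.3% in all promoters. These words are matches of letters and not shown binding sites.

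Genes with an E2F-type word fell at 24 h in 15 of 18 cases, with a median of −0.98, and those with a promoter but without the word fell in 13 of 17 cases and rose in 1, with a median of −0.70. The order was not the same in every comparison. On average in shHIF1A against shGFP the medians were 0.18 with the word and 0.15 without it. In shNDRG3 against shGFP they were 0.29 and 0.40. For the change of the shNDRG3 effect between 6 h and 24 h they were 0.61 and 0.45. These differences were not tested. Among tested genes outside the list, 176 of 574 with the word were called lower at 24 h in shGFP (30.7%). Of all 11257 tested genes without it, which include the 17 list genes without the word, 24.8% were called lower.

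Of the 11 licensing genes, 9 were lower at 24 h and 0 higher, with a median of −0.72. All 6 subunits of the MCM2 to MCM7 ring, the replicative helicase, were among them, with a median of −0.90 and a range from −1.23 to −0.37. MCM4 measured 11.42 and 11.23 log2 units in shGFP at 24 h, against 12.53 and 12.60 in normoxia. MCM6 measured 11.41 and 11.35 at 24 h, against 12.55 on each normoxia array. Both genes were low on both 24 h arrays, with no overlap between groups, and their changes were −1.23 ± 0.121 (adjusted p = 9.62e-09) and −1.16 ± 0.0936 (adjusted p = 3.84e-10). MCM7 changed by −0.97 ± 0.104, MCM3 by −0.82 ± 0.108, MCM2 by −0.66 ± 0.141 and MCM5 by −0.37 ± 0.128. The 95% interval of MCM4 (−1.48 to −0.98), the largest fall, lay below that of MCM5 (−0.63 to −0.10), the smallest. These are different probes, and the difference between them was not tested.

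CDC6, the ATPase that recruits the ring to origins, measured 7.59 and 7.53 log2 units at 24 h, against 8.57 and 8.52 in normoxia, a change of −0.98 ± 0.112 (adjusted p = 1.11e-07). Its 24 h mean was under 1.5 times the array median, so background may have affected the size of this fall, which was not tested. GMNN, geminin, the inhibitor of CDT1, changed by −0.72 ± 0.164 (adjusted p = 0.000786), and CDT1 itself by −0.44 ± 0.165 (adjusted p = 0.0332). ORC1, the largest subunit of the origin recognition complex, did not pass at 24 h (−0.12 ± 0.121, 95% interval −0.37 to 0.13), after a rise of 0.40 at 12 h (adjusted p = 0.0152). That 12 h rise was not called on the deposited scale, with arrays centred on the median, or without replicate 2 at 12 h or either normoxia array. ORC6, another subunit of the complex, measured 15.06 and 15.00 at 24 h, against 15.03 and 15.04 in normoxia, with an interval from −0.22 to 0.21. A dimmer probe of ORC6 was lower at 24 h (−0.73, adjusted p = 0.000523), so its 2 probes disagree.

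Of the 6 helicase activation genes, 5 were lower at 24 h, with a median of −0.99. Read from the brightest probes, GINS3, a subunit of the GINS complex, was the earliest gene of the list to pass the threshold. In shGFP cells it measured 11.09 and 11.18 log2 units in normoxia, then 10.74, 10.91 and 10.93 after 3 h. It measured 10.60 and 10.54 after 6 h, 10.15 and 10.19 after 12 h, and 9.65 and 9.80 after 24 h. Its arrays at each later time lay below those of the time before. The change from normoxia was −0.56 at 6 h (adjusted p = 0.0224), −0.96 at 12 h (adjusted p = 2.12e-05) and −1.41 ± 0.145 at 24 h (adjusted p = 2.2e-08). The 6 h call was lost when any of the 4 arrays of that comparison was left out. The order also depends on the probes. From the mean of kept probes, PCNA passed at 3 h (−0.38, adjusted p = 0.0198) and 6 h (−0.33, adjusted p = 0.0465). RFC3 passed at 6 h in that setting (−0.43, adjusted p = 0.027). GINS2 changed by −1.07 ± 0.115 at 24 h, GINS4 by −0.70 ± 0.158, CDC45, which completes the active helicase with the ring and GINS, by −1.07 ± 0.13, and MCM10, a factor for its activation, by −0.92 ± 0.16. GINS1 was near the array median in every group and did not pass (−0.17 ± 0.119).

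Of the 13 polymerase and fork genes, 10 were lower at 24 h and 1 was higher, with a median of −0.74. Of polymerase alpha-primase, which lays the primers, the 3 subunits on the list fell, with POLA2 at −1.21 ± 0.175, POLA1 at −0.69 ± 0.111 and PRIM1 at −0.60 ± 0.115. POLE2, a subunit of the leading-strand polymerase epsilon, fell by 1.14 on the log2 scale, whereas POLD1, the catalytic subunit of polymerase delta, changed by −0.02 ± 0.117 with an interval from −0.26 to 0.23. PCNA measured 11.72 and 11.73 log2 units at 24 h, against 12.73 and 12.66 in normoxia, and changed by −0.97 ± 0.145 (adjusted p = 5.44e-06). RPA2, of the single-strand binding protein RPA, changed by −1.02 ± 0.116, and FEN1, the flap nuclease that trims Okazaki fragments, by −0.86 ± 0.121. LIG1, the ligase that seals the fragments, did not pass at 24 h (0.31 ± 0.133, adjusted p = 0.0625), and it passed when either shNDRG3 array at 24 h was left out of the fit (adjusted p = 0.0458), under the stricter filter (0.0485) and with array weights (0.0482). Without replicate 2 of normoxia it was 0.52 (adjusted p = 0.00637).

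The subunits of replication factor C, the loader of PCNA, did not move together. RFC3 measured 9.10 and 9.09 at 24 h, against 10.40 and 10.25 in normoxia, and had already fallen at 12 h (−0.86, adjusted p = 7.22e-06). Its 24 h change was −1.23 ± 0.119 (adjusted p = 8.34e-09). RFC4 changed by −0.74 ± 0.112 and RFC5 by −0.31 ± 0.0941, a call that a dim second probe of RFC5 did not share. RFC2 measured 10.08 and 10.13 at 24 h, against 9.60 and 9.39 in normoxia. Both 24 h arrays of RFC2 were high, and the change was 0.61 ± 0.22 (adjusted p = 0.0267), although on the deposited scale it was −0.045 (adjusted p = 0.847). A second RFC2 probe gave 0.43 after normalization (adjusted p = 0.0305).

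All 4 nucleotide and uracil removal genes were lower at 24 h, with a median of −1.0. UNG, the glycosylase that removes uracil from DNA, measured 10.47 and 10.44 log2 units at 24 h, against 11.78 and 11.97 in normoxia, and changed by −1.42 ± 0.114 (adjusted p = 3.61e-10). Its level was already lower at 12 h (−0.64, adjusted p = 0.000164). The 2 other UNG probes, both near the array median, shared neither call. TYMS, thymidylate synthase, changed by −1.01 ± 0.113 and also passed at 12 h (−0.54, adjusted p = 0.000912). RRM1 and RRM2, the subunits of ribonucleotide reductase, changed by −0.70 ± 0.117 and −0.98 ± 0.179 at 24 h. The normoxia arrays of RRM2 lay far apart, at 11.02 and 10.45, against 9.62 and 9.88 at 24 h.

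The 3 chromatin genes had the lowest role median at 24 h, −1.55, and all 3 were called lower. UHRF1, which guides maintenance methylation to newly copied DNA, measured 10.72 and 10.78 at 24 h, against 12.66 and 12.89 in normoxia. Its change of −2.03 ± 0.146 (adjusted p = 6.3e-11) was the lowest of the 39 genes. CHAF1B measured 8.85 and 8.69 at 24 h, against 10.35 and 10.28 in normoxia, a change of −1.55 ± 0.115 (adjusted p = 1.05e-10). CHAF1A, its partner in the histone chaperone CAF-1, changed by −0.67 ± 0.128 (adjusted p = 0.000128). The 95% intervals of the 2 partners, −1.78 to −1.31 for CHAF1B and −0.93 to −0.40 for CHAF1A, did not overlap. The difference between these probes was not tested.

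Of the G1/S drivers, CCNE1, cyclin E1, measured 9.44 and 9.61 at 24 h, against 10.07 and 10.10 in normoxia, and changed by −0.57 ± 0.199 (adjusted p = 0.0228), a call its dim second probe did not share. E2F1, the transcription factor for many of these genes, did not pass (0.23 ± 0.158, interval −0.10 to 0.55), with 8.35 and 8.44 at 24 h, against 7.92 and 8.42 in normoxia, so the groups overlapped. Without replicate 2 of normoxia E2F1 was at 0.48 (adjusted p = 0.0327).

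Of the 33 calls at 24 h, 5 were lost when 1 of the 4 arrays compared was left out. They were CDT1 with any of the 4 left out, MCM5 and CCNE1 without either normoxia array or replicate 1 at 24 h, RFC2 without replicate 2 of normoxia or either 24 h array, and RFC5 without replicate 2 of normoxia or replicate 1 at 24 h. The other 28 kept their calls.

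Knockdown of HIF1A was compared with shGFP at the same hours to ask whether these levels depend on the factor. On average over 3 h, 6 h and 12 h, 20 of the 39 genes were higher in shHIF1A and 0 lower, where 38% of all genes were called and 19.2% were called higher. The median change was 0.17, against 0.0036 over all genes. By role, the genes called higher were 4 of 11 in licensing, 2 of 6 in helicase activation, 6 of 13 at the fork, all 4 nucleotide genes, all 3 chromatin genes and 1 of 2 G1/S drivers. At the fork, a second RFC4 probe about as bright as the one used did not share its call (0.08, adjusted p = 0.362). The dim second probe of RFC5 did not share its call either (−0.01). Hour by hour, 6 genes were higher at 3 h, where 25.1% of all genes were called and 11.8% higher. At 6 h 9 were higher, where 18.1% were called, 8.39% higher and 9.75% lower. At 12 h 17 were higher, where 23.3% were called and 10.9% higher. The 6 h count was 3 without replicate 2 of shGFP or replicate 1 of shHIF1A at 6 h and 5 without replicate 2 of shHIF1A, and the 12 h count was 10 without replicate 2 of shGFP at 12 h. Of the 20 average calls, those of PCNA, RFC4, RRM2, TYMS, CHAF1B and E2F1 were each lost when at least 1 of the arrays compared was left out. E2F1 was at 0.17 without replicate 2 of shGFP at 12 h, and CDT1 passed at 0.19 without replicate 2 of shHIF1A at 3 h.

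UNG differed most. It measured 12.56, 12.38 and 12.69 log2 units in shHIF1A at 3 h, against 11.93, 11.91 and 11.82 in shGFP. At 6 h it measured 12.71 and 12.69, against 11.60 and 11.72, and at 12 h 12.43 and 12.40, against 11.21 and 11.27. All 7 shHIF1A arrays lay above all 7 shGFP arrays of the same hours, and the average change was 0.96 ± 0.0621 (adjusted p = 1.02e-11). The 2 other UNG probes did not share this call.

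MCM6 measured 13.07, 13.02 and 13.08 in shHIF1A at 3 h, against 12.60, 12.55 and 12.51 in shGFP, and 13.02 and 13.05 at 12 h, against 12.22 and 12.14. It was high on every shHIF1A array, with an average change of 0.62 ± 0.051 (adjusted p = 6.7e-10). The other ring subunits differed less, with MCM2 at 0.35 ± 0.0766, MCM4 at 0.34 ± 0.0657 and MCM5 at 0.26 ± 0.0697, and MCM3 and MCM7 did not pass (−0.01 and 0.13). MCM7 passed on the deposited scale (0.24, adjusted p = 0.0111), with median-centred arrays (0.23, adjusted p = 0.0145) and from the mean of kept probes (0.29, adjusted p = 0.00904). Both of its further probes were also called higher, at 0.56 (adjusted p = 0.0348) and, near the array median, 0.17 (adjusted p = 0.0332). GINS4 was higher by 0.49 ± 0.0859, GINS2 by 0.39 ± 0.0626, POLA1 by 0.45 ± 0.0606, UHRF1 by 0.44 ± 0.0796, PRIM1 by 0.41 ± 0.0625 and E2F1 by 0.25 ± 0.0859. At 12 h POLA1 measured 12.04 and 11.97 in shHIF1A, against 11.36 and 11.43 in shGFP. UHRF1 measured 12.75 and 12.95, against 12.24 and 12.20. GINS2 measured 12.76 and 12.79, against 12.24 and 12.27. For these genes the shHIF1A arrays were the high ones at 12 h, with no overlap. GINS4 measured 9.14 and 8.59, against 8.43 and 8.44, so its shHIF1A arrays were high but spread, and E2F1 measured 8.32 and 8.53, against 8.28 and 7.77. At the other end, RPA2 (−0.12) and FEN1 (−0.11) had the lowest values and did not pass. A second FEN1 probe was called higher (0.24, adjusted p = 0.033), so the FEN1 probes disagree.

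From 3 h to 12 h in shHIF1A, GMNN (−0.61), MCM10 (−0.58) and PCNA (−0.38) fell and 6 genes rose. Of all genes 21.7% were called, 11.1% higher and 10.7% lower, so the share of the list called was near that of all genes. The 6 were CDT1 (0.58), LIG1 (0.57), POLA1 (0.50), MCM2 (0.44), MCM5 (0.37) and POLD1 (0.34). All of these calls but that of POLA1 were lost when at least 1 of the arrays compared was left out, and without replicate 1 at 12 h 3 genes rose and 1 fell. With either shNDRG3 array at 24 h left out of the fit 8 rose and 7 fell. Over the same hours in shGFP 13 fell (6 without replicate 2 at 12 h) and 0 rose. There 21.4% of all genes were called, 10.6% higher and 10.8% lower. The change of the knockdown effect between 3 h and 12 h was tested directly and passed for 1 gene of 39, CDT1 (0.84 ± 0.212, adjusted p = 0.0497), where 1.23% of all genes passed, 0.551% upward and 0.676% downward. In shHIF1A, CDT1 measured 11.75, 11.09 and 11.66 at 3 h, and 12.05 and 12.10 at 12 h, while in shGFP it measured 11.70, 11.76 and 11.92 at 3 h, and 11.65 and 11.39 at 12 h. Replicate 2 of shHIF1A at 3 h was the low array, and without it CDT1 rose by 0.37 and GMNN was at −0.40 within the line. The count was 0 when that array was left out, and it was 0 for 20 of the 24 arrays left out in turn. For the other 38 genes the difference between the lines in their change over these hours did not pass.

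**Figure D2:**
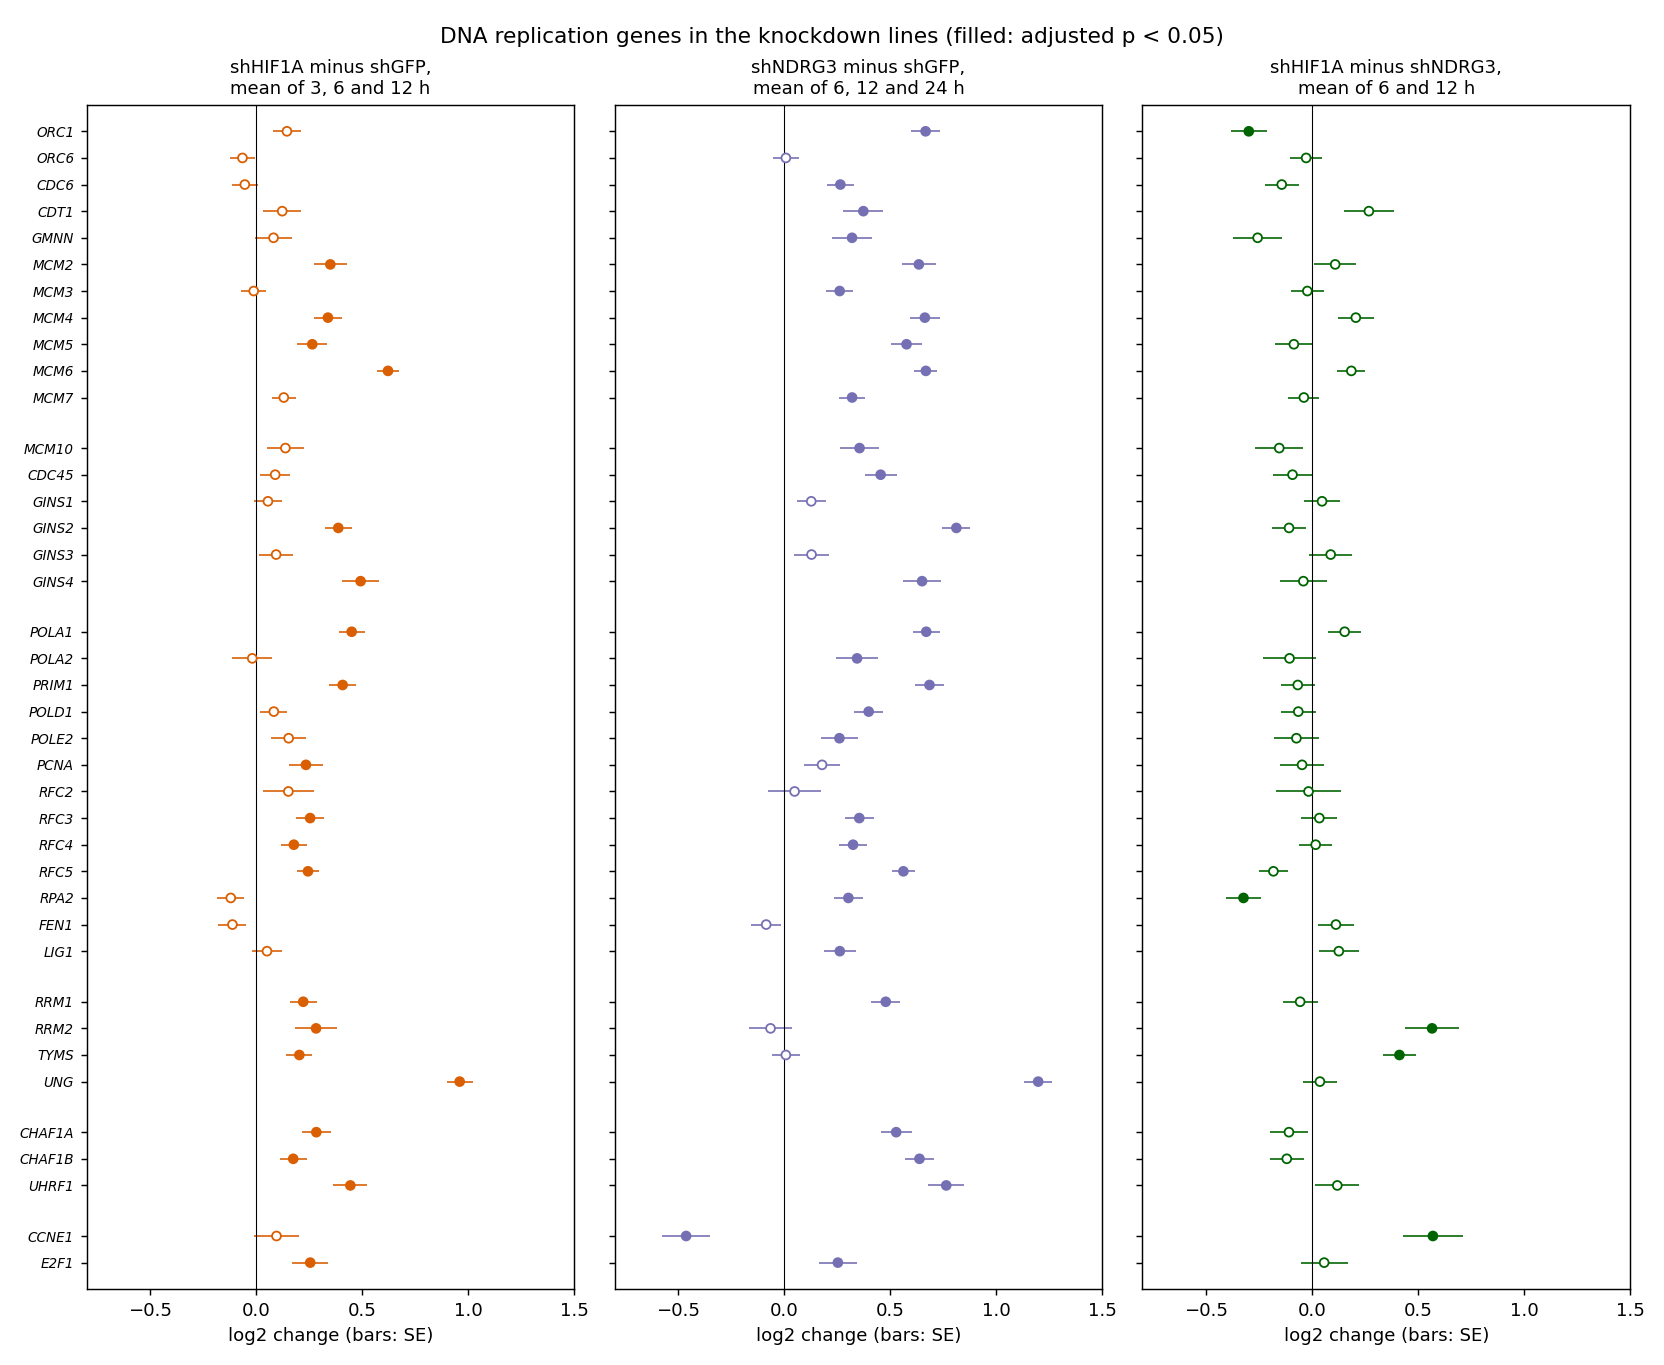
Log2 change of each measured gene (y axis, grouped by role from licensing at the top to G1/S drivers at the bottom) in shHIF1A against shGFP, shNDRG3 against shGFP, and shHIF1A against shNDRG3 (left to right); bars are SE and filled points passed the threshold. In the left and middle panels 20 and 30 genes lie right of 0 as filled points, and in the right panel 5 points are filled.

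Knockdown of NDRG3 was compared with shGFP in the same way over 6 h, 12 h and 24 h. On average 30 of the 39 genes were higher in shNDRG3 and 1, CCNE1, was lower, where 43.6% of all genes were called and 22.7% were called higher. The median change was 0.35, against 0.015 over all genes. The genes called higher were 10 of 11 in licensing, including all 6 ring subunits, 4 of 6 in helicase activation, 10 of 13 at the fork, 2 of 4 nucleotide genes, all 3 chromatin genes and 1 of 2 G1/S drivers. With the shNDRG3 arrays at 24 h left out in turn the counts were 31 higher and 1 lower without replicate 1, and 30 higher and 1 lower without replicate 2. The calls of POLE2 and E2F1 were each lost when at least 1 of the arrays compared was left out. On the deposited scale 26 were higher and 1 lower. The shHIF1A and shNDRG3 comparisons share the shGFP arrays at 6 h and 12 h, so their values are given side by side only.

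UNG again differed most. It measured 12.66 and 12.76 in shNDRG3 at 6 h, against 11.60 and 11.72 in shGFP. At 12 h it measured 12.39 and 12.28, against 11.21 and 11.27, and at 24 h 12.04 and 11.76, against 10.47 and 10.44. No array of shNDRG3 overlapped shGFP at the same hour, and the average change was 1.20 ± 0.0658 (adjusted p = 2.56e-13). The 2 other UNG probes did not share this call (0.12 and 0.16). GINS2 followed at 0.81 ± 0.0664 (adjusted p = 3.97e-10), with 12.73 and 12.96 in shNDRG3 at 24 h, against 11.55 and 11.56 in shGFP. UHRF1 was higher by 0.76 ± 0.0845, but its second, dim probe did not pass (0.19, adjusted p = 0.0618).

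Among the ring subunits, MCM6 was higher by 0.67 ± 0.0541, MCM4 by 0.66 ± 0.0697, MCM2 by 0.64 ± 0.0812, MCM5 by 0.58 ± 0.074, MCM7 by 0.32 ± 0.06 and MCM3 by 0.26 ± 0.0623. A second probe of MCM3 gave 0.53, and the 2 further probes of MCM7 did not pass. ORC1 was higher by 0.67 ± 0.0697 (adjusted p = 2.53e-08), where the shHIF1A value was 0.14 and did not pass. All of the licensing genes except ORC6 (0.01) passed, with GMNN at 0.32 ± 0.0944 and CDC6 at 0.26 ± 0.0649. PRIM1 was higher by 0.69 ± 0.0663, POLA1 by 0.67 ± 0.0643, RFC5 by 0.56 ± 0.0543 (not shared by its dim second probe), CHAF1B by 0.64 ± 0.0665 and CHAF1A by 0.53 ± 0.0738. PCNA did not pass from its brightest probe (0.18) and did from the mean of its probes that passed the filter (0.24, adjusted p = 0.000724).

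TYMS (0.01) and RRM2 (−0.06) did not pass in shNDRG3, whereas in shHIF1A they were higher by 0.20 ± 0.0614 and 0.28 ± 0.0974. CCNE1 moved the other way from most of the list. It measured 9.54 and 9.49 in shNDRG3 at 6 h, against 10.01 and 10.00 in shGFP, 9.68 and 9.64 at 12 h, against 9.93 and 10.11, and 8.44 and 9.52 at 24 h, against 9.44 and 9.61. The shNDRG3 arrays lay below those of shGFP at 6 h and 12 h, where the difference did not pass. At 24 h they lay far apart and overlapped shGFP, and the difference of −0.54 (adjusted p = 0.0394) was −0.00018 without replicate 1 and −1.08 without replicate 2. The average change was −0.46 ± 0.115 (adjusted p = 0.0018), a call that its dim second probe did not share, and it was −0.28 (adjusted p = 0.00168) without replicate 1 at 24 h.

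The 2 knockdown lines were then set against each other at 6 h and 12 h. The test passed for 5 of the 39 genes, 3 higher and 2 lower in shHIF1A, where 15.8% of all genes passed, 8.52% higher and 7.25% lower. In this fit the share of the list was thus below that of all genes in each direction. RRM2 was higher by 0.57 ± 0.127 (adjusted p = 0.00243), TYMS by 0.41 ± 0.0797 (adjusted p = 0.000588) and CCNE1 by 0.57 ± 0.141 (adjusted p = 0.00568). TYMS measured 12.81 and 12.85 in shHIF1A at 6 h, against 12.53 and 12.42 in shNDRG3, and 12.88 on each shHIF1A array at 12 h, against 12.35 and 12.47. RRM2 measured 10.41 and 10.48 at 6 h, against 10.10 and 9.94, and 10.87 and 10.80 at 12 h, against 10.06 and 10.19. For both nucleotide genes every shHIF1A array lay above every shNDRG3 array of the same hour. ORC1 (−0.30 ± 0.0854, adjusted p = 0.0172) and RPA2 (−0.32 ± 0.0822, adjusted p = 0.00711) were lower in shHIF1A. With arrays centred on the median neither of these 2 passed, and on the deposited scale ORC1 did not. The ORC1 call was also lost without replicate 2 of shHIF1A or of shNDRG3 at 12 h, or replicate 1 of either line at 6 h. The count was 9 without replicate 2 of shHIF1A at 3 h. ORC1 measured 9.10 and 9.21 in shHIF1A at 6 h, against 9.29 on each shNDRG3 array, and 9.36 and 9.28 at 12 h, against 9.70 and 9.86. RPA2 measured 12.22 and 12.05 at 6 h, against 12.44 and 12.45, and 11.99 and 11.96 at 12 h, against 12.35 and 12.27. Both were low on every shHIF1A array of these hours. No helicase activation or chromatin gene passed, and the lowest p there belonged to MCM10 (−0.15, adjusted p = 0.437) and CHAF1B (−0.12, adjusted p = 0.397). MCM10 measured 9.98 and 10.16 in shHIF1A at 12 h, against 10.35 and 10.26, and CHAF1B measured 10.36 and 10.32, against 10.59 and 10.51. UNG did not pass (0.04, 95% interval −0.13 to 0.20). MCM6 did not pass either (0.19, 95% interval 0.05 to 0.32, adjusted p = 0.0615), but it did under the stricter filter (adjusted p = 0.0357), from the mean of kept probes (0.0352) and with array weights (0.0256).

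The difference between shNDRG3 and shGFP was then compared between hours. At 6 h 7 genes were higher in shNDRG3, where 25.3% of all genes were called and 12.1% higher. The 6 h count was 2 without replicate 2 of shGFP and 4 without replicate 2 of shNDRG3 at 6 h, and without either shNDRG3 array at 24 h 12 were higher and 3 lower. At 12 h 19 were higher, where 27.5% were called and 13.4% higher. At 24 h 28 were higher and CCNE1 was lower, where 33.2% were called, 17.2% higher and 16.1% lower. A direct test of the change in the knockdown effect between 6 h and 24 h passed for 17 genes, all in the positive direction, where 10.7% of all genes passed, 6.03% in that direction and 4.64% in the other. The median over the 39 genes was 0.56, against 0.010 over all genes. Without replicate 1 of shNDRG3 at 24 h, 24 genes passed upward and RFC2 downward (−0.61), and without replicate 2, 21 passed upward and CCNE1 downward (−0.59). Of the 17, MCM3, MCM7, POLD1 and TYMS each lost the call when at least 1 of the arrays compared was left out, replicate 1 of shGFP at 24 h among them. On the deposited scale 10 passed, and in a fit to only the 8 arrays compared 8 did.

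MCM4 had the highest value, 1.58 ± 0.171 (adjusted p = 1.15e-06). In shNDRG3 it measured 12.60 and 12.56 at 6 h, and 12.78 and 12.98 at 24 h, while in shGFP it measured 12.66 and 12.57 at 6 h, and 11.42 and 11.23 at 24 h. The lines overlapped at 6 h and were far apart at 24 h, where the difference was 1.55. UHRF1 had a value of 1.28 ± 0.207 (adjusted p = 0.000183), CDT1 of 1.16 ± 0.233 (adjusted p = 0.00166) and CHAF1B of 0.91 ± 0.163 (adjusted p = 0.00057). By role the 17 were 7 of 11 licensing genes, 2 of 6 helicase activation genes, 4 of 13 fork genes, 2 of 4 nucleotide genes, 2 of 3 chromatin genes and 0 of 2 G1/S drivers.

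The other licensing genes of the 17 differed in how far apart the lines were at 6 h. MCM2 measured 12.31 and 12.00 in shNDRG3 at 24 h, against 11.01 and 11.13 in shGFP, and 11.95 and 12.05 at 6 h, against 11.65 and 11.88. MCM3 measured 13.63 and 13.75 at 24 h, against 12.93 and 13.15, and 14.06 and 14.04 at 6 h, against 14.06 and 14.02. MCM7 measured 14.09 and 14.01 at 24 h, against 13.36 and 13.50, and 14.41 and 14.52 at 6 h, against 14.34 and 14.47. These subunits were high in shNDRG3 at 24 h without overlap, and for MCM3 and MCM7 the lines overlapped at 6 h. MCM6 measured 12.31 and 12.48 at 24 h, against 11.41 and 11.35, and 12.91 and 12.94 at 6 h, against 12.63 and 12.52. ORC1 measured 9.92 and 9.58 at 24 h, against 8.71 and 8.62, and 9.29 on each array at 6 h, against 8.90 and 9.02. At 6 h MCM6 (0.35, adjusted p = 0.00705) and ORC1 (0.33, adjusted p = 0.0464) were already higher in shNDRG3, and MCM2 did not pass (0.23, adjusted p = 0.26). The ORC1 call was lost when any 1 of the 4 arrays of 6 h was left out, and that of MCM6 without replicate 2 of either line.

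At the active helicase and the fork, CDC45 measured 11.46 and 11.91 in shNDRG3 at 24 h, against 10.79 and 10.75 in shGFP, and 12.17 and 12.04 at 6 h, against 12.01 and 11.99. GINS2 measured 13.02 and 12.95 in shNDRG3 at 6 h, against 12.59 and 12.47 in shGFP. POLA1 measured 11.86 and 11.78 at 24 h, against 10.60 and 10.62, and 11.41 and 11.69 at 6 h, against 11.25 and 11.10. At 6 h GINS2 (0.46, adjusted p = 0.00406) and POLA1 (0.38, adjusted p = 0.0136) were already higher in shNDRG3, and CDC45 did not pass (0.11, adjusted p = 0.648). PRIM1 measured 11.83 and 11.62 at 24 h, against 10.57 and 10.74, and 11.74 and 11.56 at 6 h, against 11.35 and 11.26. POLD1 measured 10.92 and 10.89 at 24 h, against 10.01 and 10.17, and 10.44 and 10.45 at 6 h, against 10.21 and 10.41. LIG1 measured 10.98 and 11.12 at 24 h, against 10.37 and 10.31, and 10.12 and 10.10 at 6 h, against 10.11 and 10.18. POLD1 and LIG1 thus ended above their 6 h levels in shNDRG3, and LIG1 did not separate the lines at 6 h.

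Among nucleotide and chromatin genes, RRM1 measured 13.87 and 13.98 in shNDRG3 at 24 h, against 13.07 and 13.00 in shGFP, and 14.16 and 14.01 at 6 h, against 13.94 and 13.85. TYMS measured 12.33 and 12.09 at 24 h, against 11.86 and 11.98, and 12.53 and 12.42 at 6 h, against 12.67 and 12.86. TYMS did not pass at 6 h (−0.29, adjusted p = 0.0618) and was higher in shNDRG3 at 24 h (0.29, adjusted p = 0.048), a call lost without replicate 1 of either line or replicate 2 of shGFP. UHRF1 measured 12.02 and 12.53 at 24 h, against 10.72 and 10.78, and 13.10 and 12.92 at 6 h, against 12.75 and 12.78. CHAF1B measured 9.78 and 10.11 at 24 h, against 8.85 and 8.69, and 10.46 and 10.56 at 6 h, against 10.27 and 10.20. At 6 h neither CHAF1B (0.27, adjusted p = 0.0916) nor UHRF1 (0.24, adjusted p = 0.26) passed. The second probes of POLA1 and UHRF1 and 2 further probes of MCM7 did not share the call, and second probes of MCM3, MCM4 and PRIM1 did.

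**Figure D3:**
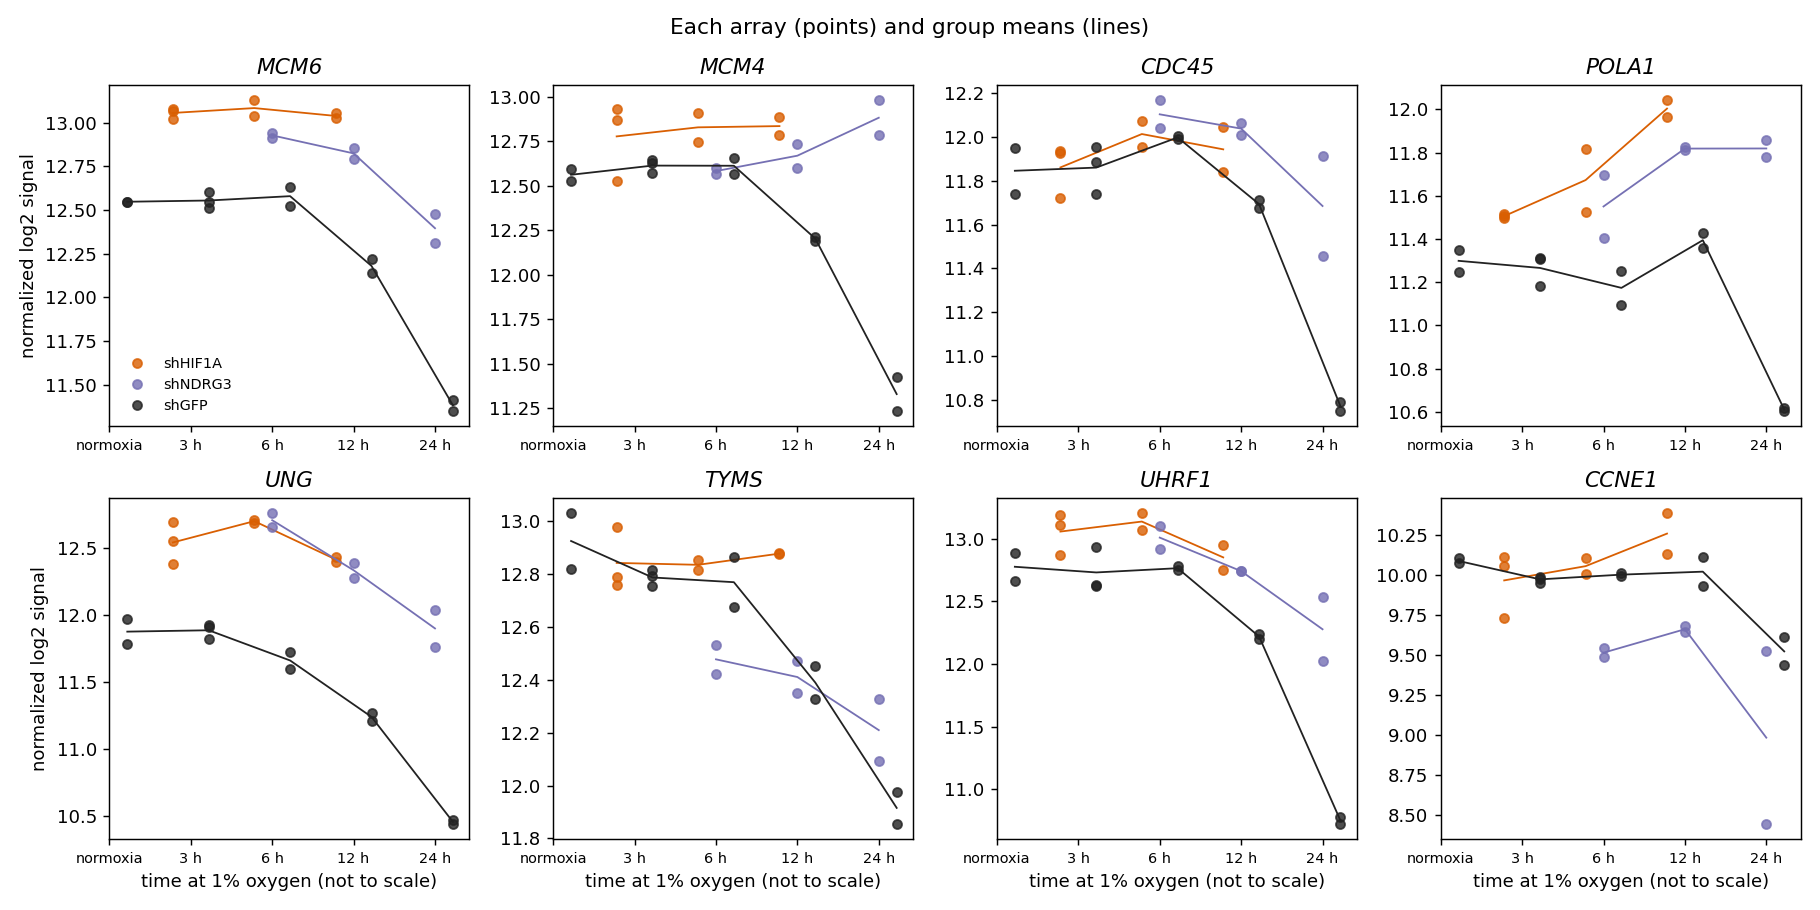
Normalized log2 signal on each array (points) and group mean (lines) for 8 genes against time at 1% oxygen (x axis, not to scale) in shHIF1A, shNDRG3 and shGFP; y axes differ between panels. At 24 h the shGFP points of MCM6, MCM4, CDC45, POLA1, UNG and UHRF1 lie below both shNDRG3 points, while for CCNE1 the shNDRG3 points lie at 8.44 and 9.52.

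Within the shNDRG3 line, 20 genes fell and 6 rose from 6 h to 24 h, with a median of −0.36. There 40.1% of all genes were called, 19.3% higher and 20.8% lower. In shGFP over the same hours 28 fell and 1 rose, with a median of −0.82. There 39.8% of all genes were called, 18.5% higher and 21.3% lower. The genes that rose in shNDRG3 were LIG1 (0.94), CDT1 (0.78), RFC2 (0.63), ORC1 (0.46), POLD1 (0.46) and RFC5 (0.29). For CDT1 the levels were 11.57 and 11.44 at 6 h, and 12.50 and 12.07 at 24 h in shNDRG3, while in shGFP they were 11.76 and 11.57 at 6 h, and 11.29 at 24 h on each array. RFC2 also rose in shGFP (0.65), and on it the shNDRG3 arrays at 24 h were far apart, at 10.61 and 9.43. Without replicate 1 of shNDRG3 at 24 h 12 genes fell and 6 rose, RFC2 was at 0.04 and ORC1 at 0.29, and neither of these 2 passed. The RFC2 rise in shGFP was not called when any 1 of its 4 arrays was left out. The genes that fell most in shNDRG3 were PCNA (−1.04), POLE2 (−0.93), RFC3 (−0.86) and UNG (−0.81), against −0.87, −1.07, −0.99 and −1.21 in shGFP. For PCNA, POLE2 and RFC3 the change of the knockdown effect did not pass (−0.17, 0.14 and 0.14). MCM4 (0.30), GINS2 (−0.15), RRM1 (−0.16) and MCM2 (0.16) did not pass within shNDRG3, where in shGFP their changes were −1.28, −0.98, −0.86 and −0.70.

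**Figure D4:**
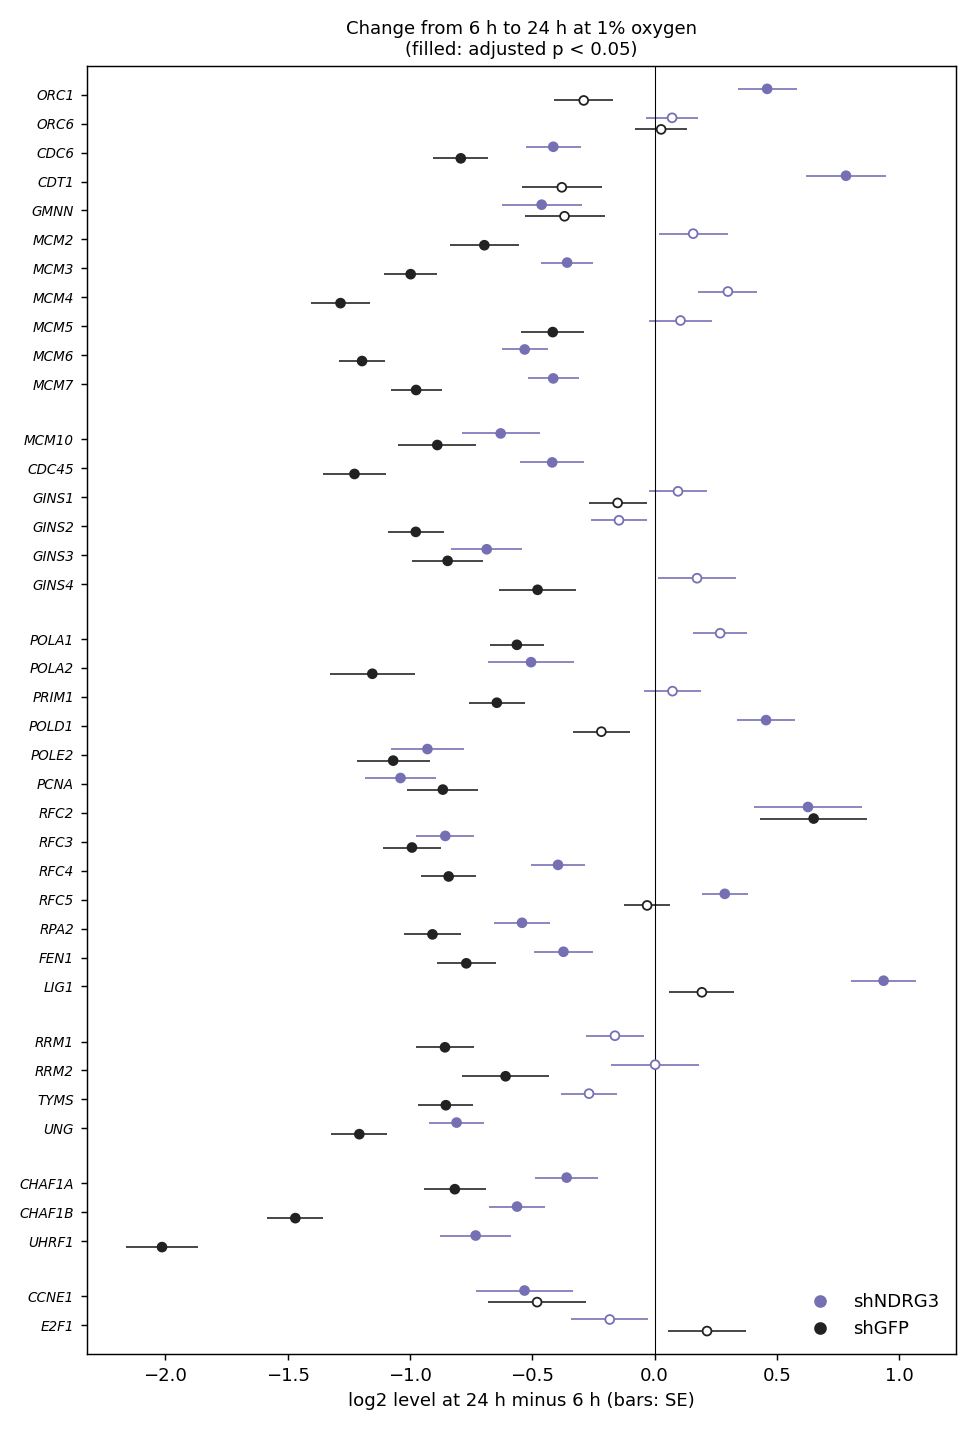
Log2 level at 24 h minus 6 h of 1% oxygen (x axis) for each measured gene (y axis, grouped by role) in shNDRG3 and shGFP; bars are SE and filled points passed the threshold. In shNDRG3 20 genes fell and 6 rose, and in shGFP 28 fell and 1 rose.

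Further genes of the same processes were read from lists chosen by function, with earlier results of these data known, so their counts are not independent support. Of 35 further replication factors 34 were measured, and at 24 h in shGFP 20 were lower and 4 higher, where 24.2% of all genes were lower and 21.1% higher, with a median of −0.37. DSCC1, a subunit of an alternative clamp loader, changed by −1.79 ± 0.173, ORC5, of the origin recognition complex, by −1.39 ± 0.104, and TIPIN, of the fork protection complex, by −1.02 ± 0.122. POLD4, the small subunit of polymerase delta, rose by 1.53 ± 0.167, and RNASEH2C, of ribonuclease H2, by 1.07 ± 0.126, and both stayed positive on the deposited scale (0.89 and 0.42). POLD3, a further delta subunit, was at 0.55 ± 0.11, a value that turned to −0.095 on that scale. In shHIF1A on average 14 of the 34 were higher and 2 lower, where 19.2% of all genes were higher and 18.8% lower. In shNDRG3 19 were higher and 1 lower, where 22.7% of all genes were higher and 20.9% lower. POLD2, another subunit of polymerase delta, was 0.62 ± 0.0624 higher in shHIF1A and 0.78 ± 0.0662 higher in shNDRG3. RPA1, the large subunit of RPA, was 0.57 ± 0.0585 and 0.73 ± 0.0621 higher in the same lines.

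Among 20 genes of G1/S control, 19 were measured, and at 24 h in shGFP 11 were lower and 4 higher (24.2% and 21.1% of all genes), with a median of −0.49. CDC25A, the phosphatase that activates CDK2, changed by −2.66 ± 0.153 and CCNA2, cyclin A2, by −1.34 ± 0.115. CDKN1A, which encodes a CDK inhibitor, rose by 1.19 ± 0.151 (0.78 on the deposited scale), and CDKN1B, a related inhibitor, by 0.66 ± 0.143 (0.0053 on that scale, where it was not called). In shHIF1A on average 6 were higher and 4 lower (19.2% and 18.8% of all genes), and in shNDRG3 6 were higher and 2 lower (22.7% and 20.9% of all genes). CDKN1A was lower in both, at −1.03 ± 0.0823 in shHIF1A and −1.88 ± 0.0873 in shNDRG3, and the direct comparison of shHIF1A with shNDRG3 gave 1.15 ± 0.107 (adjusted p = 2.18e-08). CCND1, cyclin D1, was lower, at −2.83 ± 0.0963 in shHIF1A and −2.18 ± 0.102 in shNDRG3. E2F5, an E2F family member, was higher by 0.82 ± 0.0674 in shHIF1A and 0.71 ± 0.0714 in shNDRG3, and SKP2, part of a ubiquitin ligase that targets CDT1 for degradation, was higher by 0.85 ± 0.116 in shNDRG3.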

How the data were processed

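Total RNA from 24 samples in 11 groups of line and hours was column-purified, amplified with an Illumina TotalPrep kit and hybridised, per the labels' protocols. For 47231 probes the authors deposited linear intensities, from 52.6 to 59613. How they handled background and scaling is not stated in the labels, and array medians differed, so normalization was taken as not yet done. Signal over background is not given, so the number of arrays limits the precision.

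The log2 of these intensities was quantile normalized (limma 3.58.1, R 4.3.3). A probe was kept if above its array's median on at least 2 arrays (31100 probes), and each gene was its kept probe with the highest mean (15246 genes). Platform annotation gave 30113 probes 1 symbol, 8 several, and did not list 17110. Group means were fitted to all 24 arrays (lmFit, eBayes; 13 residual and 9.74 prior degrees of freedom), with two-sided tests and Benjamini-Hochberg adjustment within each contrast at 0.05. Averages are unweighted means over the hours that both lines share. The fit was tested on simulated data. Promoter words were counted in RefSeq windows (GRCh38.p14).

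The members and the further lists were chosen with earlier results of these data known. Values per array are given, by role, for the member with the smallest p and that with the largest change in each main comparison, for members called against their role's majority, and for those with a called change of the knockdown effect. Up to 3 genes per direction were named from each further list by smallest p. Alternatives were the deposited scale, median-centred arrays, normexp background correction with an offset of 50, no filter, a filter at 2 times the array median, the mean of kept probes, array weights, the replicate number as a block, a fit to only the arrays compared, and each array left out in turn, which for the comparisons within a line and at single hours was chosen after seeing the data.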

Additional observations from a re-analysis of the deposited data

Results flagged for a closer look

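The change in a knockdown effect over time, tested as an interaction in limma, marked the following results. For shNDRG3 against shGFP, at 24 h minus 6 h, the values of the licensing genes were 1.58 for MCM4, 1.16 for CDT1, 0.85 for MCM2, 0.75 for ORC1, 0.67 for MCM6, 0.64 for MCM3 and 0.56 for MCM7. At the helicase and the fork they were 0.83 for GINS2, 0.81 for CDC45, 0.83 for POLA1, 0.72 for PRIM1, 0.67 for POLD1 and 0.74 for LIG1. The nucleotide genes gave 0.70 for RRM1 and 0.59 for TYMS, and the chromatin genes 1.28 for UHRF1 and 0.91 for CHAF1B. The adjusted p of these 17 ranged from 1.15e-06 (MCM4) to 0.0182 (TYMS). For shHIF1A against shGFP, at 12 h minus 3 h, CDT1 gave 0.84 (adjusted p = 0.0497). Groups of 2 or 3 arrays were not tested for an outlying array.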

How the results depend on the processing

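Across 124 called results of single genes, 9 other settings and 24 arrays left out in turn, 1 result reversed, RFC2 at 24 h in shGFP, at −0.045 on the deposited scale. Others kept their sign but lost the call: 16 on the deposited scale, 16 with median-centred arrays and 11 with only the arrays compared. The mean of kept probes lost 6, array weights 4, and normexp and no filter 1 each. Leaving out arrays lost 109, each result counted once per array left out. Counts of called genes that moved by more than 1.5 times were as follows. On the deposited scale 25 passed at 12 h, 0 for the change of the shHIF1A effect and 10 for that of shNDRG3. The change of the shHIF1A effect also gave 0 with median-centred arrays, normexp, no filter, the mean of kept probes and only the arrays compared. The mean of kept probes gave 1 at 3 h and 3 at 6 h. Array weights gave 10 between the knockdown lines and 5 for the change of the shHIF1A effect, and only the arrays compared gave 8 between the knockdown lines and 8 for the change of the shNDRG3 effect. The causes were not tested. Leaving out each array gave 0 to 1 at 3 h, 0 to 1 at 6 h, 6 to 20 at 12 h, 28 to 34 at 24 h, 17 to 22 for shHIF1A, 29 to 32 for shNDRG3, 4 to 9 between the knockdown lines, 0 to 3 for the change of the shHIF1A effect and 13 to 25 for that of shNDRG3. It gave 4 to 9 at 3 h, 3 to 12 at 6 h and 10 to 20 at 12 h for shHIF1A, 2 to 15 at 6 h, 14 to 24 at 12 h and 25 to 31 at 24 h for shNDRG3, 4 to 15 and 6 to 17 for 12 h against 3 h within shHIF1A and shGFP, and 18 to 28 and 26 to 33 for 24 h against 6 h within shNDRG3 and shGFP. With the replicate block the counts over the first 9 comparisons were 0, 1, 17, 33, 20, 31, 5, 1 and 17 in that order, with no call of a member lost. The labels do not say whether the replicate numbers pair the samples. Deviations of same-numbered arrays correlated at −0.095 to 0.28 over 111 pairs (median −0.0016), 8 of them above 0.1, which does not settle it. Over all genes at 24 h, 3223 were higher and 3694 lower, against 1098 and 9035 on the deposited scale and 2103 and 4474 with median-centred arrays. Signal over background is not given, which limits the sizes read from probes near the array median, such as those of CDC6 and GINS1.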

Other observations

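A further list of 16 genes for nucleotide supply and chromatin assembly, 14 of them measured, was read beside the members. At 24 h in shGFP 7 were lower than in normoxia and 3 higher, where 24.2% of all genes were lower and 21.1% higher, with a median of −0.40. DCTPP1, a pyrophosphatase that clears modified nucleotides, was at −2.34 ± 0.146, ASF1A, a histone chaperone, at −1.27 ± 0.123 and DUT, which removes dUTP, at −1.14 ± 0.14. TK1, thymidine kinase, was at 0.74 ± 0.137 but not called on the deposited scale (0.081), and RBBP4, which encodes a histone-binding subunit shared by CAF-1, was at 0.42 ± 0.13 and turned to −0.18 on the deposited scale. After normalization RBBP4 differed in sign from CHAF1A and CHAF1B, and on the deposited scale it did not.

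In shHIF1A on average 5 of the 14 were higher and 1 lower, where 19.2% of all genes were higher and 18.8% lower. In shNDRG3 5 were higher and 0 lower, where 22.7% of all genes were higher and 20.9% lower. RBBP4 was 0.72 ± 0.0706 higher in shHIF1A and 0.77 ± 0.0749 higher in shNDRG3, and DUT 0.50 ± 0.0762 and 0.77 ± 0.0809 higher. The change of the shNDRG3 effect from 6 h to 24 h passed for DUT (1.06 ± 0.198, adjusted p = 0.000903), DNMT1, the maintenance DNA methyltransferase (0.63 ± 0.181, adjusted p = 0.0258), and HELLS, a chromatin remodeller (0.77 ± 0.222, adjusted p = 0.0261).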
